A study of Mus musculus with 8 samples.

Results

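Cytosolic ribosomal proteins are the structural proteins of the 2 ribosomal subunits in the cytoplasm. Their genes were taken here as the protein-coding genes of the RefSeq mouse annotation named Rpl or Rps plus a number, with an optional final a, x, y or l, together with Rplp0, Rplp1, Rplp2 and Rpsa. The rule found 81 of 21883 protein-coding genes. Of these, 47 encode proteins of the large subunit, 31 proteins of the small subunit (Rpsa among them) and 3 the acidic stalk of the large subunit. The rule uses names only, so 5 paralogs that end in l (Rpl3l, Rpl10l, Rpl32l, Rpl39l and Rps27l) are included, while others such as Fau and Rack1 are not.

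The proteins and the ribosomal RNAs are needed in nearly equal numbers for each ribosome, and their genes are among the most highly transcribed in dividing and secretory cells. Their promoters are known as short and often without a TATA box, and their mRNAs begin with a run of pyrimidines, the 5′ terminal oligopyrimidine tract, through which the kinase mTOR controls translation. In beta cells the ribosomes of the rough endoplasmic reticulum make proinsulin.

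Chromatin immunoprecipitation followed by sequencing was done in Beta-TC6, a mouse insulinoma line that serves as a model of the pancreatic beta cell grown to confluence, with no other treatment named. All libraries came from cells fixed with DSG, a protein crosslinker, and then with formaldehyde. There was 1 library each for BMAL1 and CLOCK, the partner factors of the circadian clock, for PDX1, a homeodomain factor of beta cells, for the histone marks H3K4me2 and H3K27ac of active promoters and enhancers, and for the histone variant H2A.Z, which flanks many active starts. A pair of input libraries without antibody served as background for peak calling. With 1 library a target there are no replicates, so no difference below has a replicate check, and 95% intervals on shares (Wilson) cover counting error only. A gene was counted for a list when the centre of a peak lay within 2 kb of either end of its span in GRCm38.p6, the coordinates of mm10. Spans carry no exons, so exonic, intronic or untranslated positions were not determined.

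Library depth ran from 12892080 tags for BMAL1 to 26678241 for H3K4me2, and the share of tags inside the called peaks ran from 0.16% for CLOCK to 37.20% for H3K27ac. The line carried beta-cell chromatin: 10 of 12 beta-cell marker genes had H3K27ac at an end, among them Ins1, Ins2, Pdx1, Mafa and Slc2a2, with a median normalized tag count of 1135. Nkx2-2 and G6pc2 did not. H3K27ac was found at 1 of 4 alpha-cell markers (Gcg), 0 of 2 delta-cell, 0 of 4 acinar, 0 of 3 duct and 0 of 3 mesenchymal markers, and at 1 of 3 immune (Cd68) and 1 of 3 liver markers (Ttr).

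The ribosomal protein genes lay on 19 chromosomes, 4 of them on X. Their spans were short, from 592 to 11774 bp with a median of 3175 bp, against a median of 22734 bp in the 8735 other genes with H3K27ac at an end. For that reason the 2271 such genes with a span of at most 10 kb are given beside them. Another protein-coding gene ended within 2 kb of 41 of the 81 genes, and at those a peak cannot be assigned to one gene alone.

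Most ribosomal protein genes carried active-promoter marks. H3K27ac was present at 67 of 81 genes, 82.7% (interval 73.1 to 89.4%), against 40.2% of all protein-coding genes. H3K4me2 was present at 72 of 81, 88.9% (80.2 to 94.0%), against 56.2% of all genes. H2A.Z was less common, at 36 of 81, 44.4% (34.1 to 55.3%), against 35.6% of all genes. All 3 marks stood together at 28 of 81 genes, 34.6%, against 21.0% of all genes.

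Large-subunit genes had H3K27ac in 37 of 47 cases (78.7%), H3K4me2 in 42 (89.4%) and H2A.Z in 21 (44.7%). Among small-subunit genes the counts were 27 of 31 for H3K27ac, 27 for H3K4me2 and 13 for H2A.Z (87.1%, 87.1% and 41.9%). The 3 stalk genes all had H3K27ac and H3K4me2 by this rule, and Rplp1 and Rplp2 also had H2A.Z. At Rplp0 the H3K27ac interval lay beyond the transcript's end and did not overlap the gene. The intervals of the large and small subunit overlapped in every list. Genes with a neighbour's end within 2 kb had H3K27ac in 33 of 41 cases (80.5%), against 34 of 40 (85.0%) for genes with no such neighbour.

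H3K27ac with H3K4me2 and no H2A.Z was the most frequent combination, at 34 of 81 genes (42.0%), against 15.4% of all genes. All 3 marks followed at 28. H3K27ac and H2A.Z without H3K4me2 were at Rpl23, Rps6 and Rps13, H3K27ac alone was at Rpl34 (81.2) and Rps10 (114), and H3K4me2 without H3K27ac was at 10 genes. Of these, 5 had no H2A.Z (6.17%, against 9.05% of all genes) and 5 had it (6.17%, against 10.7%). None of the 3 marks was within 2 kb at 4 genes (4.94%), Rpl3l, Rpl10l, Rpl39l and Rps28, against 37.8% of all genes.

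**Figure D1:**
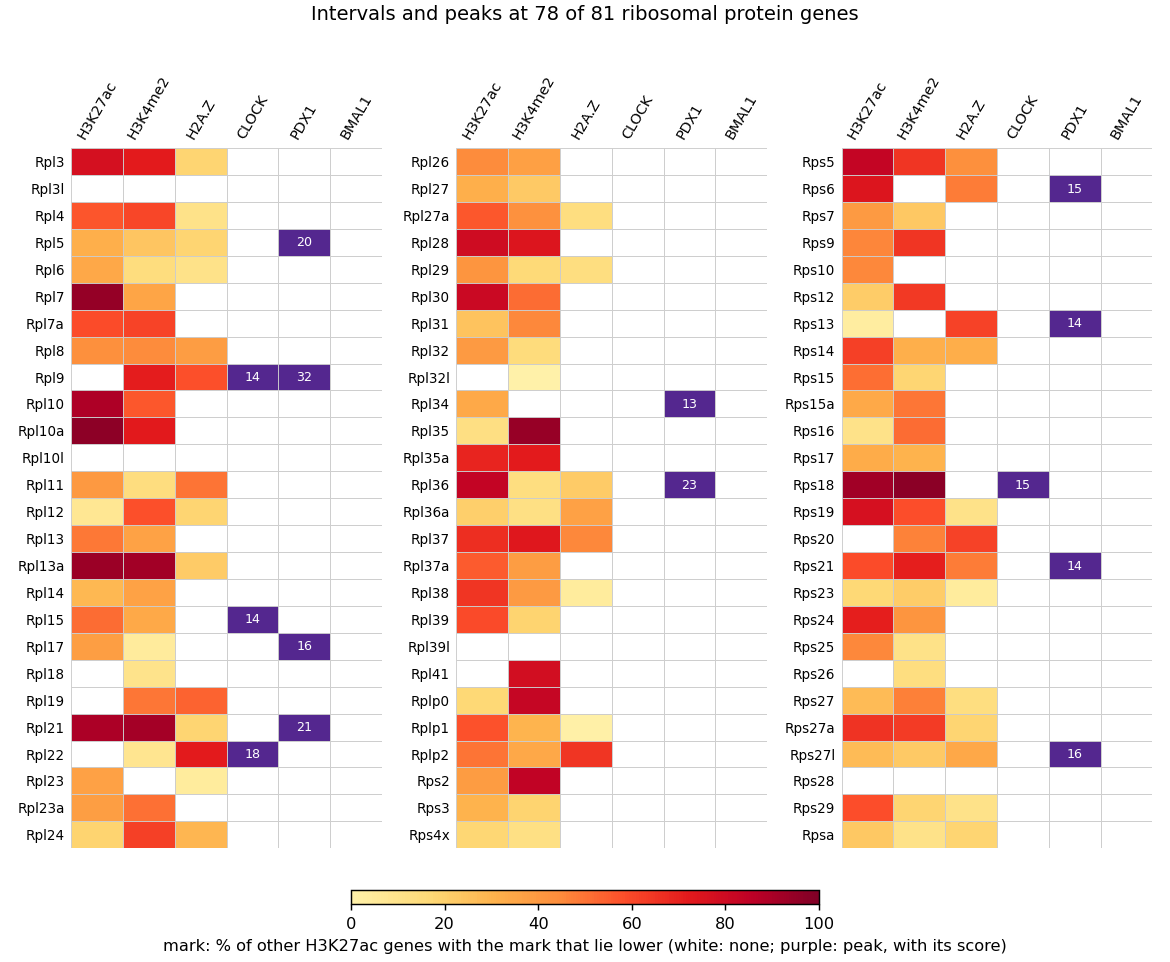
Rows are 78 of the 81 ribosomal protein genes (large subunit, then stalk, then small subunit) and columns the 6 peak lists. For a mark, the colour gives the percent of other H3K27ac genes with that mark whose summed normalized tag count lies lower; white means no interval within 2 kb, and purple a factor peak with its score. H3K27ac and H3K4me2 fill most of these rows, H2A.Z fills 35, CLOCK has 4 cells, PDX1 has 10 and BMAL1 has 0.

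The summed normalized tag count, scaled by the peak caller to 10000000 tags a library, ordered the genes within each mark. For H3K27ac the 5 highest were Rpl10a (682), Rpl7 (562), Rpl13a (518), Rps18 (476) and Rpl21 (423). The 5 lowest places were held by Rps13 (11.9), Rpl12 (19.4), Rps16 (26.1), Rpl35 (29.8), and Rplp0 and Rps23 with 40.2 each. Called intervals at these genes thus covered a wide range of strengths. The Rpl13a interval was 6504 bp wide, the Rpl10a interval 3441 bp and the Rps13 interval 500 bp, the minimum width in the list. The Rplp0 interval lay beyond the transcript's end and did not overlap the gene.

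The median H3K27ac tag count was 114 at the ribosomal protein genes (n = 67; quartiles 75.6 and 191), against 128 at other genes with H3K27ac (58.8 and 248) and 132 at the short ones. Median interval width was 1463 bp against 1543 bp. The highest value at a ribosomal protein gene, 682 at Rpl10a, was below the highest at other genes, 5857. Input tags per kb of these intervals had a median of 14 at ribosomal protein genes and 14.8 at other genes. A single H3K27ac interval covered the whole gene at 3 of the 67 genes (4.48%), against 5.5% of the short comparison genes, and a single H3K4me2 interval did so at 7 (10.4%), against 5.15%.

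For H3K4me2, Rps18 was highest with 294, followed by Rpl35 with 254. Rpl13a had 227 and Rpl21 225. The lowest were Rpl32l (6.37), Rpl17 (33.0), Rpl22 (47.6), Rpl18 (51.7) and Rpsa (53.2). Rpl35 was thus near the top for H3K4me2 and among the lowest for H3K27ac. Its H3K4me2 interval (chr2:39003520-39009832) was 6312 bp wide and centred 1545 bp upstream of the start. An end of Wdr38 lay 3 bp from Rpl35, so that value cannot be assigned to Rpl35 alone. The median was 107 at the 72 ribosomal protein genes with the mark, against 118 at other H3K27ac genes with it and 124 at the short ones.

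H2A.Z at these genes had a lower median tag count and width than at other H3K27ac genes, but not than in its list as a whole. Over all H2A.Z intervals the median tag count was 8.64 and the median width 500 bp. The highest tag counts were 23.8 at Rpl22, a large-subunit protein known for a role in T-cell development, 21.1 at Rplp2, 20 at Rps13 and at Rps20 and 18.9 at Rpl9. The lowest were 7.02 at Rplp1, 7.56 at Rpl23, Rpl38 and Rps23, and 8.64 at Rps19, Rpl4, Rpl6 and Rps29. The median was 10.3 at the 36 ribosomal protein genes, against 16.7 at other H3K27ac genes and 14.6 at the short ones, and the median width was 500 bp against 682 bp and 638 bp. Exactly 500 bp, the median width of the whole list, was the width at 23 of the 36 genes. Per kb of interval the medians were closer, 19.4 against 21.3. The 5 genes with H2A.Z but no H3K27ac at an end had 14 to 23.8 (median 18.9), and the 31 with both had 7.02 to 21.1 (median 9.72), so the groups overlapped.

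**Figure D2:**
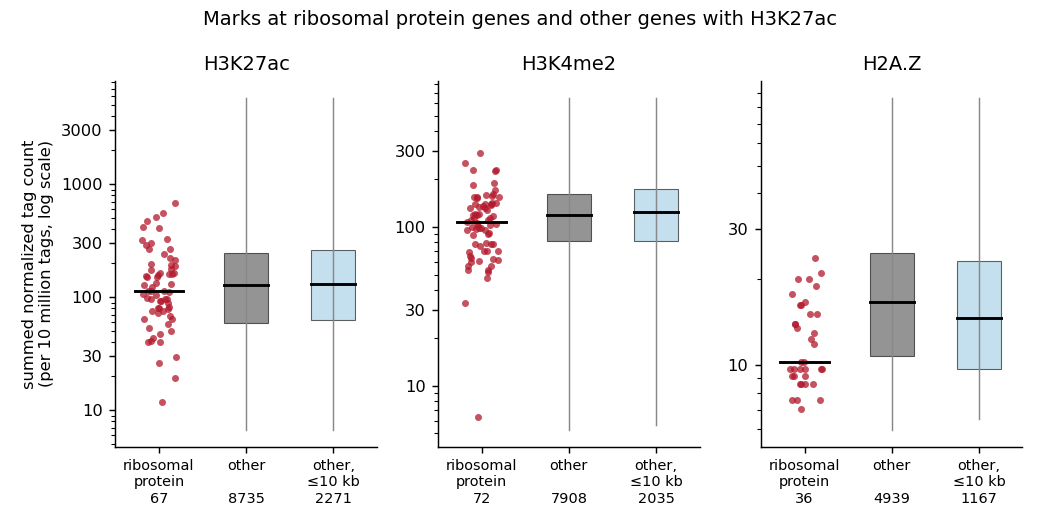
Summed normalized tag counts per gene (log scale, per 10000000 tags) for the 3 marks. Points are ribosomal protein genes with the mark, black lines are medians, boxes are quartiles and thin lines the full range of other genes with H3K27ac that have the mark, with the number of genes under each. Medians are 114, 128 and 132 for H3K27ac, 107, 118 and 124 for H3K4me2 and 10.3, 16.7 and 14.6 for H2A.Z.

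Genes with well-known roles spanned these ranges. Rpl5 and Rpl11, which bind the 5S ribosomal RNA and, when free, the p53 regulator MDM2, had 75.9 and 99.0 for H3K27ac, 79.5 and 61.5 for H3K4me2, and 9.72 and 16.7 for H2A.Z. Rps6, the substrate of S6 kinase, had 243 for H3K27ac and 16.2 for H2A.Z but no H3K4me2 interval centred within 2 kb. Rps19, which is mutated in human Diamond-Blackfan anaemia, had 267 for H3K27ac, 131 for H3K4me2 and 8.64 for H2A.Z.

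The 3 stalk proteins recruit elongation factors to the ribosome. Rplp0 had 40.2 for H3K27ac, 183 for H3K4me2 and no H2A.Z, Rplp1 had 158, 88.5 and 7.02, and Rplp2 had 128, 95.6 and 21.1. Within that small complex the order of the genes was different for each mark. The Rplp0 H3K27ac interval (chr5:115564968-115565894) lay beyond the transcript's end without overlapping the gene, and an end of Gcn1 lay 1388 bp from Rplp0. With starts of transcription alone, Rplp0 had no H3K27ac, so its 40.2 does not describe the start. Rpsa, a small-subunit protein also described as a laminin receptor, had 53.6, 53.2 and 9.72. Rps27a, made as a fusion with ubiquitin, had 192, 139 and 9.72.

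Among genes that carry H3K27ac at an end, the ribosomal protein genes were close to the rest for H3K4me2: 62 of 67 (92.5%) against 90.5% of the 8735 other genes and 89.6% of the short ones. The difference was 2.0 percentage points (Newcombe interval -6.86 to 6.28), and its sign turned under 5 of 8 other settings. H2A.Z was present at 31 of 67 (46.3%, 34.9 to 58.1%), against 56.5% of the other genes and 51.4% of the short ones. That difference was -10.3 points (-21.7 to 1.59), so its interval included 0, and it ran from -2.73 points at a fold over input of at least 8 to -16.3 with starts of transcription alone, over 8 other settings. Against the short genes it was -5.12 points. All 3 marks were found at 41.8% of the ribosomal protein genes with H3K27ac, against 52.2% of other genes and 47.4% of the short ones.

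**Figure D3:**
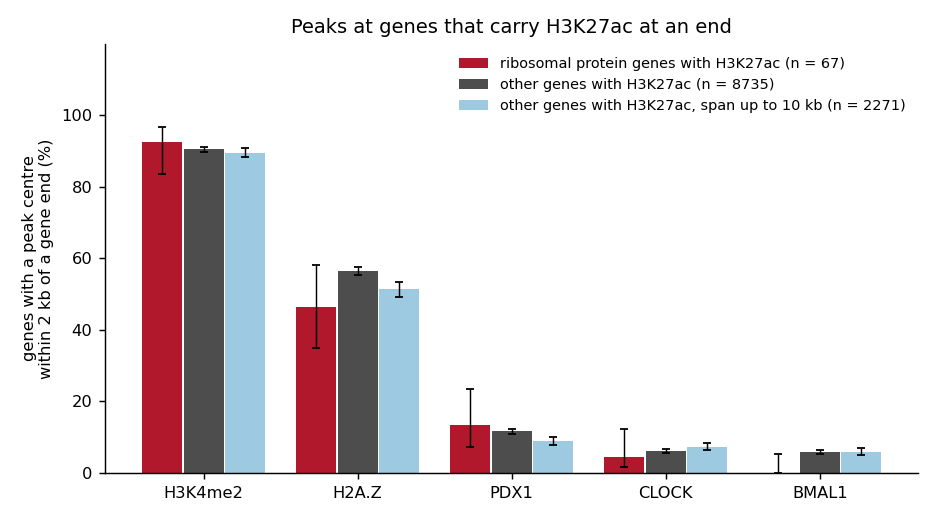
Percent of genes with H3K27ac at an end that also have a peak of each other list within 2 kb, with Wilson 95% intervals as bars, for 67 ribosomal protein genes, 8735 other genes and the 2271 of these with a span of at most 10 kb. H2A.Z is at 46.3%, 56.5% and 51.4%, and BMAL1 at 0%, 5.76% and 5.99%.

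The side of the start on which H2A.Z lay could be read where RefSeq promoter records gave a start and strand, for 61 of the 81 genes. Of these, 49 had an H3K27ac centre within 2 kb of the start, and 6844 other genes did. H2A.Z was within 2 kb of the start at 19 of the 49 (38.8%), against 55.1% of the others. Of its 20 intervals at ribosomal protein genes, 6 (30.0%) were centred downstream of the start, against 54.9% at other genes, and the median centre was at -356 bp, against +104 bp.

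The upstream H2A.Z intervals included those of Rps6 (-610.5 bp), Rpsa (-571.5), Rpl4 (-569), Rpl38 (-559), Rps21 (-529), Rpl5 (-397), Rps13 (-391), Rpl12 (-322) and Rplp2 (-215.5). The downstream ones were at Rpl24 (+174), Rps27l (+224.5), Rpl11 (+310), Rps23 (+385) and Rpl6 (+614), and Rpl37 had 1 interval on each side, at -1078 and +874 bp. An interval on both sides was found at 2.04% of the 49 genes, against 4.38% of the others. The H2A.Z interval covered the start itself at 5 of 49 genes (10.2%), against 21.1%. Many genes with an upstream interval lie close to another gene's end, such as Rpl12 (58 bp), Rplp2 (86 bp), Rps21 (95 bp) and Rpl4 (283 bp). Rps6, Rps13 and Rpl38 have no such end within 2 kb. Among genes with a downstream interval, Rpl24 and Rpl37 also have one. Upstream intervals near a neighbour cannot be assigned to one gene, and the part of neighbours in the difference in side was not tested.

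H3K27ac lay across the start. Its median centre was at +226 bp at ribosomal protein genes and +128 bp at other genes, and the start was inside an interval at 44 of 49 genes (89.8%), against 85.0%. H3K4me2 was centred further downstream, at a median of +444 bp against +292 bp, and covered the start at 25 of 49 (51.0%), against 59.1%. With 20 H2A.Z intervals in 1 library, the difference in side has no replicate check.

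**Figure D4:**
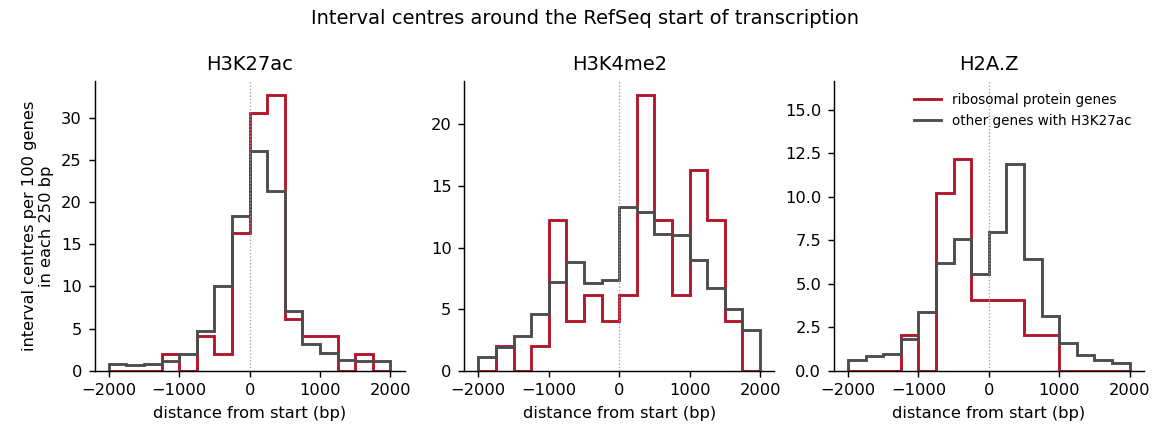
Centres of intervals per 100 genes in bins of 250 bp around the RefSeq start of transcription (negative is upstream) for 49 ribosomal protein genes and 6844 other genes with H3K27ac at the start. H2A.Z centres at ribosomal protein genes are most frequent from -750 to -250 bp, and at other genes from +250 to +500 bp.

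No H3K27ac interval was centred within 2 kb of an end at 14 ribosomal protein genes, which fall into 3 kinds. At 4 of them an interval overlapped the gene but its centre lay more than 2 kb from either end. Of these, Rpl18, Rpl19 and Rpl41 are described. Rpl41, the shortest ribosomal protein, lay under an interval at chr10:128541413-128550013 with a tag count of 1336. At Rpl18 (chr7:45717496-45718915, 138) and Rpl19 (chr11:98026203-98027465, 192) the interval covered the RefSeq start, which lies inside the annotated span and more than 2 kb from its ends.

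A second kind was the paralogs that end in l. Rpl3l, the striated-muscle paralog of Rpl3, Rpl10l, which takes over from X-linked Rpl10 in male germ cells, and Rpl39l, a testis paralog of Rpl39, had no interval of any of the 3 marks within 2 kb. Rpl32l had a single H3K4me2 interval with a tag count of 6.37. The exception was Rps27l, the p53-responsive paralog of Rps27, with 64.8 for H3K27ac, 77.6 for H3K4me2 and 13.0 for H2A.Z. Rps27 itself had 64.8, 114 and 9.18. Without the 5 paralogs, H3K27ac was at 66 of 76 genes (86.8%).

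The third kind was 6 ordinary ribosomal protein genes, among them Rpl9, Rpl22, Rps20, Rps26 and Rps28, with no H3K27ac interval on them or centred near them. The nearest centre was 256715 bp away from Rps20, 42658 bp from Rps26, 31608 bp from Rpl9, 11121 bp from Rpl22 and 10565 bp from Rps28. H3K4me2 was nevertheless called at Rpl9 (154), Rps20 (114), Rps26 (60.3) and Rpl22 (47.6), and H2A.Z at Rpl22, Rps20 and Rpl9. Rps28 had none of the 3 marks. Ribosomal protein genes have many processed pseudogenes with nearly the same exons, and the sources used here do not say how reads that match more than 1 place were treated. Its part in the missing intervals was not tested, so that absence here means only that none was called at this depth.

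The letters around the start are shown for the 4 genes with the highest and the 4 with the lowest H3K27ac among those with a RefSeq start. They are also shown for 3 of the ordinary genes without H3K27ac. The order follows H3K27ac tag counts near either gene end, and promoter activity was not measured. Each line runs 5′ to 3′ on the gene's strand from 60 bases before to 30 bases from the start on (RefSeq, GRCm38.p6). Capitals mark a pyrimidine run, a C followed by at least 4 further pyrimidines, that begins within 10 bases of the start on the gene's strand. The highest group is Rpl10a (chr17:28328411-28328500, plus strand), Rpl13a (chr7:45128716-45128805, minus), Rps18 (chr17:33955636-33955725, minus) and Rpl10 (chrX:74270756-74270845, plus).
Rpl10a: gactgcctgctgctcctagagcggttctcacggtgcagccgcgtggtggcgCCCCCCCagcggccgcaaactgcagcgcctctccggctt
Rpl13a: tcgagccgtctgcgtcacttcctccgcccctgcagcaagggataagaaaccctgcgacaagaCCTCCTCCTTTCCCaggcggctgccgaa
Rps18: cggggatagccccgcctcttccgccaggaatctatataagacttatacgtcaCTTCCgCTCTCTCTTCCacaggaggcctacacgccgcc
Rpl10: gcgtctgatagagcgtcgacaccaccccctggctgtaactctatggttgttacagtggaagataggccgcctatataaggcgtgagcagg
The lowest group is Rps13 (chr7:116334161-116334250, minus), Rpl12 (chr2:32961652-32961741, plus), Rps16 (chr7:28350629-28350718, plus) and Rpl35 (chr2:39005102-39005191, minus).
Rps13: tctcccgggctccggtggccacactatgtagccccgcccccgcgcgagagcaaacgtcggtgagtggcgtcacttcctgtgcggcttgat
Rpl12: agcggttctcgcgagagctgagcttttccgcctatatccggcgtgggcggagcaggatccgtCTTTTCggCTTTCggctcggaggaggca
Rps16: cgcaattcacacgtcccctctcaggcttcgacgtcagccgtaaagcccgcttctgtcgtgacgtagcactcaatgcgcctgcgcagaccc
Rpl35: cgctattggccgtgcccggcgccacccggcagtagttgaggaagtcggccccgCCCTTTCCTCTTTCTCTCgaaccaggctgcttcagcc
The genes without H3K27ac are Rpl22 (chr4:152324376-152324465, plus), Rps26 (chr10:128626477-128626566, minus) and Rps28 (chr17:33824533-33824622, minus).
Rpl22: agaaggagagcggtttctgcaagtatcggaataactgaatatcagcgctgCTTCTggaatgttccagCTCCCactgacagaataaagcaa
Rps26: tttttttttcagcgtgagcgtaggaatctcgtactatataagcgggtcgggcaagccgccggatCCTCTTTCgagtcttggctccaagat
Rps28: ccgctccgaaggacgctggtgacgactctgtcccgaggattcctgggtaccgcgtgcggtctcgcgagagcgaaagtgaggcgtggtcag
The pyrimidine run is in 3 of the 4 highest and 2 of the 4 lowest. It is in 2 of 4 without H3K27ac, counting Rpl9, which has no such run in the stretch searched around the start and whose longer line is given with its CLOCK peak.

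Over all 61 genes with a promoter record (250 bases before to 50 after the start), the pyrimidine run was in 37 (60.7%), against 31.1% of 17491 promoters and 31.7% of those of other H3K27ac genes. The ETS letters CCGGAA, searched like all the following on both strands, were in 30 (49.2%, 37.1 to 61.4%), against 19.1% of all promoters and 30.6% of other H3K27ac genes. ETS factors such as GABP are known regulators of housekeeping promoters. The YY1 letters AAGATGG were in 9 (14.8%), against 6.35% and 7.34%, but in the 100 bases before the start in 1.64%, against 1.4% and 1.38%. The pyrimidine run and the ETS letters stood together in 21 of the 61 promoters, and 15 had neither. With H3K27ac centred within 2 kb of an end or lying over the start, the run was in 31 of 53 promoters (58.5%) and the ETS letters in 28 (52.8%, 39.7 to 65.6%). With neither, the run was in 6 of 8 and the ETS letters in 2 of 8 (95% interval 7.15 to 59.1%), so the intervals overlapped. Among these 8 are the paralogs Rpl3l, Rpl10l, Rpl32l and Rpl39l, each with the run, and Rpl39l also has the ETS letters. The split is thus not one among ordinary ribosomal protein genes alone. A match describes letters and is not a bound site.

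The ETS letters nearest the start are shown for the genes with a factor peak or a well-known role that hold them within 100 bases before it, with the letters in capitals (a match on the other strand reads TTCCGG). The lines run from 100 bases before to 30 bases from the start on, for Rpl15 (chr14:18270957-18271086, minus), Rps18 (chr17:33955636-33955765, minus), Rps21 (chr2:180257279-180257408, plus), Rps6 (chr4:86857338-86857467, minus) and Rpsa (chr9:120127666-120127795, plus).
Rpl15: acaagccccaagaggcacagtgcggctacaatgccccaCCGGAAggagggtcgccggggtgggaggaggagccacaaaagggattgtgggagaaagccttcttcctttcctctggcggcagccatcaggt
Rps18: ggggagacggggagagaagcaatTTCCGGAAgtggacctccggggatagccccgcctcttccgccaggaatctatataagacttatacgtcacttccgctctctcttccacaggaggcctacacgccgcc
Rps21: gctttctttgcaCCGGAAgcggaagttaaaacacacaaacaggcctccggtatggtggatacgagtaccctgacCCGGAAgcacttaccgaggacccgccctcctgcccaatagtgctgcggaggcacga
Rps6: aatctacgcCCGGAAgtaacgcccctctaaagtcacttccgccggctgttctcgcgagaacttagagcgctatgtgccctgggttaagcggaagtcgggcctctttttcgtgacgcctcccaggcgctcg
Rpsa: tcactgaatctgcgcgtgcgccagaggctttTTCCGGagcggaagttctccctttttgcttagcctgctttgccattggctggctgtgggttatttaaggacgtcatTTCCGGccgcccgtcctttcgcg
Rps21 and Rpsa hold 2 matches each in the printed stretch, and Rps18 an overlapping pair on both strands. The second match of Rpsa lies after the start. In the 100 bases before the start the letters were in 16 of 61 genes (26.2%, 16.8 to 38.4%), against 9.56% of all promoters and 15.7% of other H3K27ac genes.

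The other letters follow with the same 2 backgrounds. SP1 letters GGGCGG were in 57.4%, against 46.3% of all promoters and 66.3% of other H3K27ac genes. NFY letters CCAAT were in 31.1% against 39.2% and 39.0%, TATA letters TATAAA in 11.5% against 13.3% and 6.44%, homeodomain letters TAATTA, the core that PDX1 reads, in 3.28% against 4.68% and 2.42%, and the palindromic NRF1 site in 1.64% against 1.33% and 2.33%. The E-box CACGTG, the element bound by BMAL1 and CLOCK, was in 5 promoters (8.2%), those of Rpl13a, Rpl14, Rpl19, Rpl23 and Rpl34, against 7.91% and 10.8%. None of these 5 genes had a BMAL1 or CLOCK peak within 2 kb. The median ratio of observed to expected CpG was 0.857, against 0.577 in all promoters and 0.801 in other H3K27ac genes, and median GC content was 57.0%, against 56.3% and 61.7%.

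**Figure D5:**
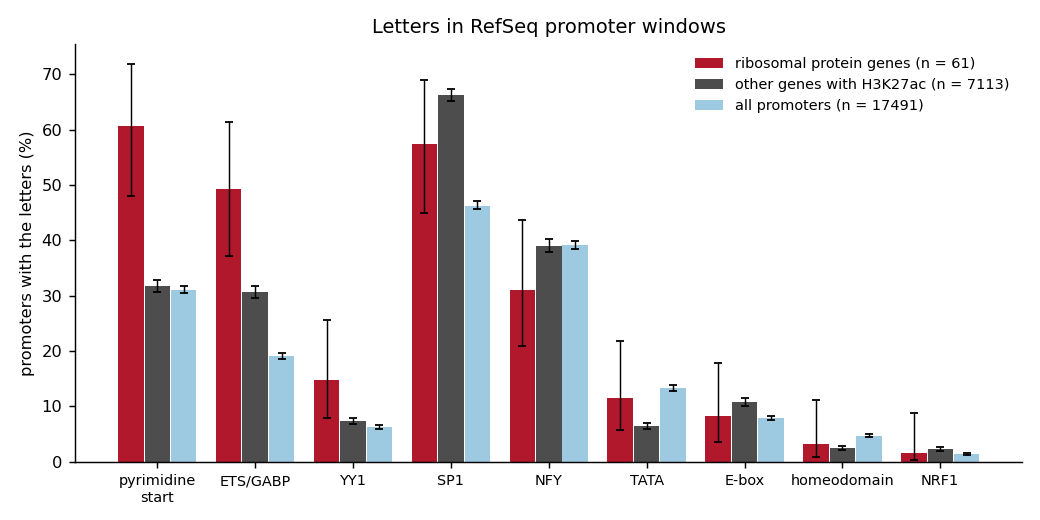
Percent of RefSeq promoter windows that hold each set of letters, with Wilson 95% intervals, for 61 ribosomal protein genes, 7113 other genes with H3K27ac and all 17491 promoters. The pyrimidine start is at 60.7%, 31.7% and 31.1%, and the ETS letters at 49.2%, 30.6% and 19.1%.

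BMAL1 was called at none of the 81 genes, against 2.95% of all genes, and a count of 0 allows a share of up to 3.7%. Among genes with H3K27ac the counts were 0 of 67, which allows up to 4.48% (Wilson limit 5.42%), against 5.76% of other genes and 5.99% of the short ones. The difference from the other genes was -5.76 points (Newcombe interval -6.27 to -0.316). Either clock factor was called at 6 of 81 genes (7.41%), against 4.99% of all genes, and all 6 were CLOCK calls. No ribosomal protein gene gained a BMAL1 peak under any of the other settings tried. The comparison share among genes with H3K27ac was 4.54% at 1 kb, beside 0 of 60, and 4.98% with starts alone, beside 0 of 49. A count of 0 among so few genes does not set their share below 4.54% or 4.98%. The nearest was 6916 bp from Rps10, with a score of 26, followed by 7763 bp at Rpl18 (176) and 9567 bp at Rpl11 (14). The median distance to the nearest BMAL1 peak was 351 kb for the 67 genes with H3K27ac, against 150 kb for other genes with H3K27ac, and 286 kb over all 81.

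Strong clock peaks, counting scores of at least 100, lay within 50 kb of 2 ribosomal protein genes. The share of all genes with such a peak at that distance was not computed, so this count shows neither excess nor lack. Rpl15 was 29132 bp from the BMAL1 peak and 29160 bp from the CLOCK peak inside Nr1d2 (scores 408 and 433). Rpl18 was 7763 and 10609 bp from BMAL1 peaks of 176 and 143 in and next to Dbp, and 7746 and 10530 bp from their CLOCK partners (173 and 140). None of these reached the 2 kb window.

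CLOCK was called at 6 of 81 genes, 7.41% (3.44 to 15.2%), against 2.91% of all genes, with scores from 13 to 18. At Rpl22 the peak (chr4:152325688-152325892) lay 1354 bp inside the gene, with a score of 18. At Rps18 (chr17:33951274-33951478) it had 15 and lay beyond the transcript's end, only 112 bp from an end of B3galt4. Rpl15 (chr14:18270383-18270587) and Rpl9 (chr5:65391636-65391840) had 14 each, and the lowest of the 6 scores was 13, the calling threshold. The median score of the 6 was 14, against 17 over the 532 CLOCK peaks at all gene ends and 15 in the whole list, in which 43.5% of peaks scored 13 or 14.

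None of the 6 CLOCK peaks overlapped a BMAL1 or PDX1 peak. At least 1 bp was shared with an H3K4me2 interval by 5 of them, with H3K27ac by 3 and with H2A.Z by 2. The same shares over all CLOCK peaks were not computed, so these counts do not set the 6 apart from other CLOCK peaks. Among genes with H3K27ac, CLOCK was at 3 of 67 ribosomal protein genes (4.48%, 1.53 to 12.4%), against 6.04% of other genes. Rpl9 and Rpl22 are among the 14 genes without H3K27ac, where the share was 3 of 14 (21.4%, 7.57 to 47.6%), against 0.781% of other genes without H3K27ac. These groups are unlike, since H3K4me2 was at 10 of the 14 (71.4%), against 33.0% of the other genes. At 4 of the 14 an H3K27ac interval also overlapped the gene. The CLOCK count there rests on 3 peaks, and with only the upper 50% of each list by score 2 of the 6 CLOCK genes remained, Rpl22 and Rps18.

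Rpl9 is shown because its CLOCK peak reached into its promoter record, which 1 of the 11 factor peaks at genes with such a record did. The peak centre was 307 bp upstream of the Rpl9 start and 241 bp from an end of Lias, the lipoic acid synthase gene, whose nearest end lies 66 bp from Rpl9. The line runs from 250 bases before to 30 bases from the start on (chr5:65391402-65391681, minus strand, RefSeq, GRCm38.p6), and the capitals are the 46 bases inside the CLOCK peak.
Rpl9: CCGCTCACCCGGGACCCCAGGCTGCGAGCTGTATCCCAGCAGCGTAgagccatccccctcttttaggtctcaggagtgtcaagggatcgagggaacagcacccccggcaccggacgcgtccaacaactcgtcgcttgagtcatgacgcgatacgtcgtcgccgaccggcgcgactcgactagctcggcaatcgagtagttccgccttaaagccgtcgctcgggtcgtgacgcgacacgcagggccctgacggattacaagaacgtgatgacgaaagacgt
These 46 bases hold no CACGTG. The rest of the peak lies outside the record and was not read.

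PDX1 was called at 10 of 81 genes, 12.3% (6.85 to 21.3%), against 6.89% of all genes. Rpl9 had the highest score, 32 (chr5:65393098-65393332, 1784 bp upstream of the start and 1718 bp from Lias). It was followed by Rpl36 with 23 (chr17:56612977-56613211), Rpl21 with 21 (chr5:146832465-146832699) and Rpl5 with 20 (chr5:107907976-107908210), whose peak lay toward the transcript's end and 51 bp from an end of Dipk1a. Rpl17 (chr18:75005060-75005294) and Rps27l (chr9:66948397-66948631) had 16, Rps6 (chr4:86854354-86854588) 15, Rps13 (chr7:116334988-116335222) and Rps21 (chr2:180256443-180256677) 14, and Rpl34 (chr3:130730659-130730893) 13. The median was 16, against 19 over the 1432 PDX1 peaks at all gene ends.

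An H3K27ac interval shared at least 1 bp with 5 PDX1 peaks (Rpl17, Rpl21, Rpl34, Rpl36 and Rps21), and 4 overlapped none of the 3 marks (Rpl5, Rpl9, Rps6 and Rps27l). The same shares over all PDX1 peaks were not computed. Among genes with H3K27ac, PDX1 was at 9 of 67 ribosomal protein genes (13.4%, 7.23 to 23.6%), against 11.6% of other genes and 8.89% of the short ones. The difference of 1.87 points (-4.37 to 12.1) changed sign under 4 of 8 other settings. The median distance to the nearest PDX1 peak was 34.3 kb for the 67 genes with H3K27ac, against 21.9 kb for other genes with H3K27ac. Rpl9 was the only ribosomal protein gene with both a CLOCK and a PDX1 peak, and 15 of 81 (18.5%) had any factor, against 11.3% of all genes. Among genes with H3K27ac, any factor was at 12 of 67 (17.9%), against 20.3% of other genes and 18.9% of the short ones.

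Counts at other genes of translation are given beside these, without a test. Over all genes the shares were 40.2% for H3K27ac, 2.91% for CLOCK and 2.95% for BMAL1. Of 78 mitochondrial ribosomal protein genes, 56 had H3K27ac (71.8%), 37 H2A.Z (47.4%), 8 PDX1 (10.3%), 2 CLOCK (2.56%) and 1 BMAL1 (1.28%). The next lists hold longer genes, with median spans of 15046 bp for translation factors and 14639 bp for assembly genes, against 3175 bp. Of 45 translation factor genes, 41 had H3K27ac (91.1%), with a median tag count of 232 beside the 114 of the ribosomal protein genes, 2 had BMAL1 (4.44%, Eef1d and Eif4a1) and 5 had CLOCK (11.1%). The CLOCK genes were the initiation factors Eif4a1 (score 24) and Eif4g1 (23), the elongation factor Eef2 (22), the poly(A)-binding protein Pabpc1 (19) and the recycling factor Abce1 (14). Of 46 ribosome assembly genes, 38 had H3K27ac (82.6%), 9 CLOCK (19.6%) and 4 BMAL1 (8.7%), led by the nucleolar protein nucleolin, Ncl, with scores of 81 for CLOCK and 63 for BMAL1. Median CLOCK scores were 14 at the cytosolic and 14 at the mitochondrial ribosomal protein genes, 18 at assembly genes and 22 at translation factors. Of 9 ribosomal protein genes outside the naming rule, 7 had H3K27ac, 2 had PDX1 (Rack1 among them), and Rpl7l1 alone had BMAL1 and CLOCK, with a score of 19 for each.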

How the data were processed

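ChIP-seq libraries of Beta-TC6 cells, 1 for each of 6 targets, were mapped to mm10, and the tools named are Bowtie 1.1.1 and HOMER, HOMER without a version, per the submitters' processing notes. HOMER findPeaks called the peaks of each library against a pooled input, per the file headers. The factor style served for BMAL1, CLOCK and PDX1 (at least 13 tags, 4 times the input and 4 times the surrounding 10 kb) and the histone style for the 3 marks (4 times the input). For H2A.Z the header names another input than the sample's description, and the header was followed. Normalized tag counts, a deposited signal, are scaled to 10000000 tags, the deposited score is the authors' peak score, and the deposited fold over input is a ratio, all per the file headers. Each was used within its own list only. Total tags were 26678241 for H3K4me2, 13430083 for H3K27ac, 18513695 for H2A.Z, 19568242 for PDX1, 17898856 for CLOCK and 12892080 for BMAL1. A site below the threshold enters no list, so absence means not detectable at this depth.

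Gene spans came from a RefSeq table of GRCm38.p6, which shares coordinates with mm10, without the mitochondrial genome. A peak counted for a gene when its centre lay within 2 kb of either end, and tag counts and widths were summed over such intervals. Starts, strands and promoter letters came from RefSeq promoter records, which matched 61 of the 81 genes and 17491 genes in all. Wilson and Newcombe 95% intervals cover counting error, and 3 counts served as the limit that a count of 0 allows. No test was run, since each target has 1 library and genes are not replicates. The alternatives were windows of 1 and 5 kb, overlap of a gene end by at least 1 bp, the upper 50% of each list, a fold of at least 8, starts only, no paralogs in l, comparison genes up to 10 kb, the largest interval alone and the 100 bases before the start. Named genes were those with a factor peak, those without H3K27ac, the 5 highest and 5 lowest in each mark (ties added), the paralogs in l and Rpl5, Rpl11, Rps6, Rps19, Rplp0, Rplp1, Rplp2, Rpsa and Rps27a. A few genes that this rule names are not reported here. Further genes are named for the side of H2A.Z, the E-box letters and the translation lists, after their values were seen. The genes and lists were chosen with earlier results of these data known. The assignment of peaks to genes was tested on simulated data, in which 100 of 100 planted peaks were recovered. Python 3.11.15, pandas 2.3.3, NumPy 2.4.6, statsmodels 0.14.6 and matplotlib 3.10.9 were used.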

Additional observations from a re-analysis of the deposited data

How the results depend on the processing

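No paired analysis was possible because each target has 1 library. Of 102 values recomputed under other settings, 71 stayed within the interval or 1.5-fold range of the reported value on the same side, 22 moved beyond it and 9 changed sign. Counting an interval only where it overlaps a gene end lowered the share of ribosomal protein genes with H3K4me2 to 54.3%, with H2A.Z to 17.3%, and with CLOCK and PDX1 to 0%. A window of 1 kb gave 74.1% for H3K4me2. The upper 50% of each list gave 63.0% for H3K27ac, 65.4% for H3K4me2, 2.47% for CLOCK and 4.94% for PDX1, and a fold over input of at least 8 gave 33.3% for H3K27ac, 9.88% for H3K4me2 and 6.17% for H2A.Z. Starts of transcription alone gave 6.56% for PDX1. Among genes with H3K27ac, the H3K4me2 difference from other genes changed sign to -1.22 points at 1 kb, -0.291 at 5 kb, -4.31 with the upper 50%, -3.28 at a fold of 8 and -1.26 with starts alone. The PDX1 difference changed sign to -7.32 points at 5 kb, -0.799 by overlap, -0.306 with the upper 50% and -1.91 with starts alone. The BMAL1 difference went to -7.98 points at 5 kb, with 0 ribosomal protein genes, and a count of 0 keeps it from turning positive in any setting. The H2A.Z difference ran from -16.3 to -2.73 points. It, the CLOCK difference and the ratios of medians kept their side in every setting run. In the 100 bases before the start the share with ETS letters was 26.2%, with SP1 letters 29.5%, with NFY letters 16.4%, with YY1, TATA and E-box letters 1.64% each (YY1 1.4% of all promoters), and with homeodomain and NRF1 letters 0%. Smaller windows and stricter lists hold fewer peaks by construction. The cause of the other changes was not tested. Scores of 13 or 14, next to the calling threshold, were held by 4 of the 6 CLOCK and 3 of the 10 PDX1 peaks, and shares over 67 genes carry wide intervals.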
